A study of Homo sapiens with 6 samples.

Results

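The 36 genes described here encode nucleolar ribosome biogenesis factors and subunits or factors of RNA polymerase I. They are listed by symbol, a list drawn up with earlier results of these data known, and all 36 symbols matched 1 gene each among the 60651 genes counted in every library. Total RNA was sequenced after enzymatic removal of ribosomal RNA in 6 cultures of a human neuroblastoma cell line, 3 labelled EtOH (the vehicle) and 3 labelled Tet (tetracycline added to the medium for 5 days). The titles name IMR-5/75, a *MYCN*-amplified line for which the study describes a tetracycline-inducible shRNA against *MYCN*, and a tag calls the groups control and induction of a knockdown, whereas the protocol text describes single clones of SK-N-SH cells with a tetracycline-inducible *MYCN* expression construct under antibiotic selection. The model could not be settled from these sources, so groups are called by the treatment in the title, and what tetracycline switched in these cells is not assumed.

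Ribosome biogenesis starts in the nucleolus, where RNA polymerase I transcribes the ribosomal RNA precursor. Small nucleolar RNPs (snoRNPs) methylate or pseudouridylate this precursor, the small subunit processome and the large subunit processing factors fold and cut it, and assembly factors accompany the particles toward the cytoplasm. Many genes of this pathway are known targets of MYC family proteins, which bind the E-box as dimers with MAX, and in neuroblastoma the pathway is studied as a part of the growth programme of *MYCN*-amplified cells.

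The depth was 27933378 to 40498065 counts per library, so that 3 counts, the level below which a gene was treated as not detectable, corresponded to 0.0741 to 0.107 CPM (counts scaled to a common library size). *MYCN* itself measured 158, 256 and 156 CPM in the EtOH libraries and 197, 200 and 145 CPM in the Tet libraries (log2 fold change -0.07, edgeR adjusted p = 0.956), and the groups overlapped. The library labelled EtOH 2 stood apart: its share of counts from mitochondrial genes was the lowest (4.12%, against up to 10.01%), and it held the highest value of 24.8% and the lowest value of 28.2% of the genes tested. Of 13 sympathoadrenal neuroblast markers 10 were tested, 8 of them with a log2 fold change above 0, 7 at an unadjusted p under 0.05 with every Tet library above every EtOH library, and none past an adjusted p of 0.05. Over all genes tested, 5.83% were higher in Tet at an unadjusted p under 0.05, and 9.2% had every Tet library above every EtOH library. The summed level of the neuroblast markers was 1035 to 1130 CPM in EtOH and 1356 to 1536 CPM in Tet. Of 12 mesenchymal-type markers 11 were tested, 7 of them below 0 and 4 above. At an unadjusted p under 0.05, 2 were lower in Tet and 1 was higher, against 4.94% and 5.83% of all genes. In 3 every Tet library lay below every EtOH library and in 1 above, against 8.28% and 9.2%. Their summed level was 346 to 597 CPM in EtOH and 333 to 497 CPM in Tet, while their median level was 1.88 TPM in EtOH and 4.45 TPM in Tet. *TH* did not exceed 3 counts in any library. Blood and endothelial markers summed to at most 1.14 CPM and Schwann and glial markers to at most 5.76 CPM.

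The E-box CACGTG, which reads the same on both strands, was searched in the RefSeq promoter windows (GRCh38.p14, 250 bases before to 50 bases after a transcription start). For 30 of the 36 genes a window was at hand, and 13 of these 30 (43.3%) held at least 1 CACGTG, against 8.77% of all 27305 genes with a window and 10.9% of the 15842 protein-coding ones. *NOP58*, *NOLC1*, *RRP12*, *BOP1*, *RRP1B* and *POLR1E* had no window in the table. The 13 genes were *FBL*, *NOP10*, *GAR1*, *GNL3*, *MYBBP1A*, *UTP20*, *UTP4*, *WDR43*, *RRP9*, *NOP14*, *BYSL*, *NOP2* and *PES1*. By role, the small subunit processome had an E-box in 6 of its 8 genes with a window, and RNA polymerase I and its factors in 0 of 6. Of the 14 matches 13 began between 20 bases before and 40 bases after the start, the other one being a further match of *NOP10* at position -170. This is a count of letters and not of binding. One example is shown for each role that had a match, with 12 bases on each side and the E-box in capitals. They lie at chr19:39846356-39846385 on the minus strand (*FBL*), chr15:34343130-34343159 on the minus strand (*NOP10*), chr3:52686026-52686055 on the plus strand (*GNL3*), chr12:101280083-101280112 on the plus strand (*UTP20*) and chr22:30591880-30591909 on the minus strand (*PES1*), and the first base of the motif is at position 7, -11, 7, -10 and 14 relative to the start, counted as 1.
FBL: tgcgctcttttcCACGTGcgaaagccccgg
NOP10: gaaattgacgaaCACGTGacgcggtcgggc
GNL3: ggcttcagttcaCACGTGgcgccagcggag
UTP20: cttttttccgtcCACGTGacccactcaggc
PES1: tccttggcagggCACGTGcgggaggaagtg

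No gene of the set passed an adjusted p of 0.05 between Tet and EtOH, although most had lower values in Tet. All 36 genes passed the filter on low counts. With edgeR's quasi-likelihood test, adjusted over the 22443 genes tested, 0 of 36 were called, where 0.236% of all genes were. DESeq2 and limma-voom also called 0 of 36, where they called 485 of 40467 genes fitted and 58 of 22443 genes tested. At an unadjusted p under 0.05, 4 of 36 genes were lower in Tet (*GNL3*, *NOP16*, *WDR75* and *UTP20*), against 4.94% of all genes, and 1 was higher (*BOP1*), against 5.83%. The fitted log2 fold change was below 0 for 29 of 36 genes, compared with 50.7% of all genes, and the median was -0.27, compared with -0.01 over all genes and -0.03 over the 8232 protein-coding genes with a mean of at least 5 CPM. Among the 26 genes of the set with a mean of at least 5 CPM, 24 were below 0 (median -0.32). The 10 genes under 5 CPM were split evenly, with 5 on each side (median -0.08). As these are bulk cultures, fewer cells expressing a gene and less RNA per cell cannot be told apart.

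**Figure D1:**
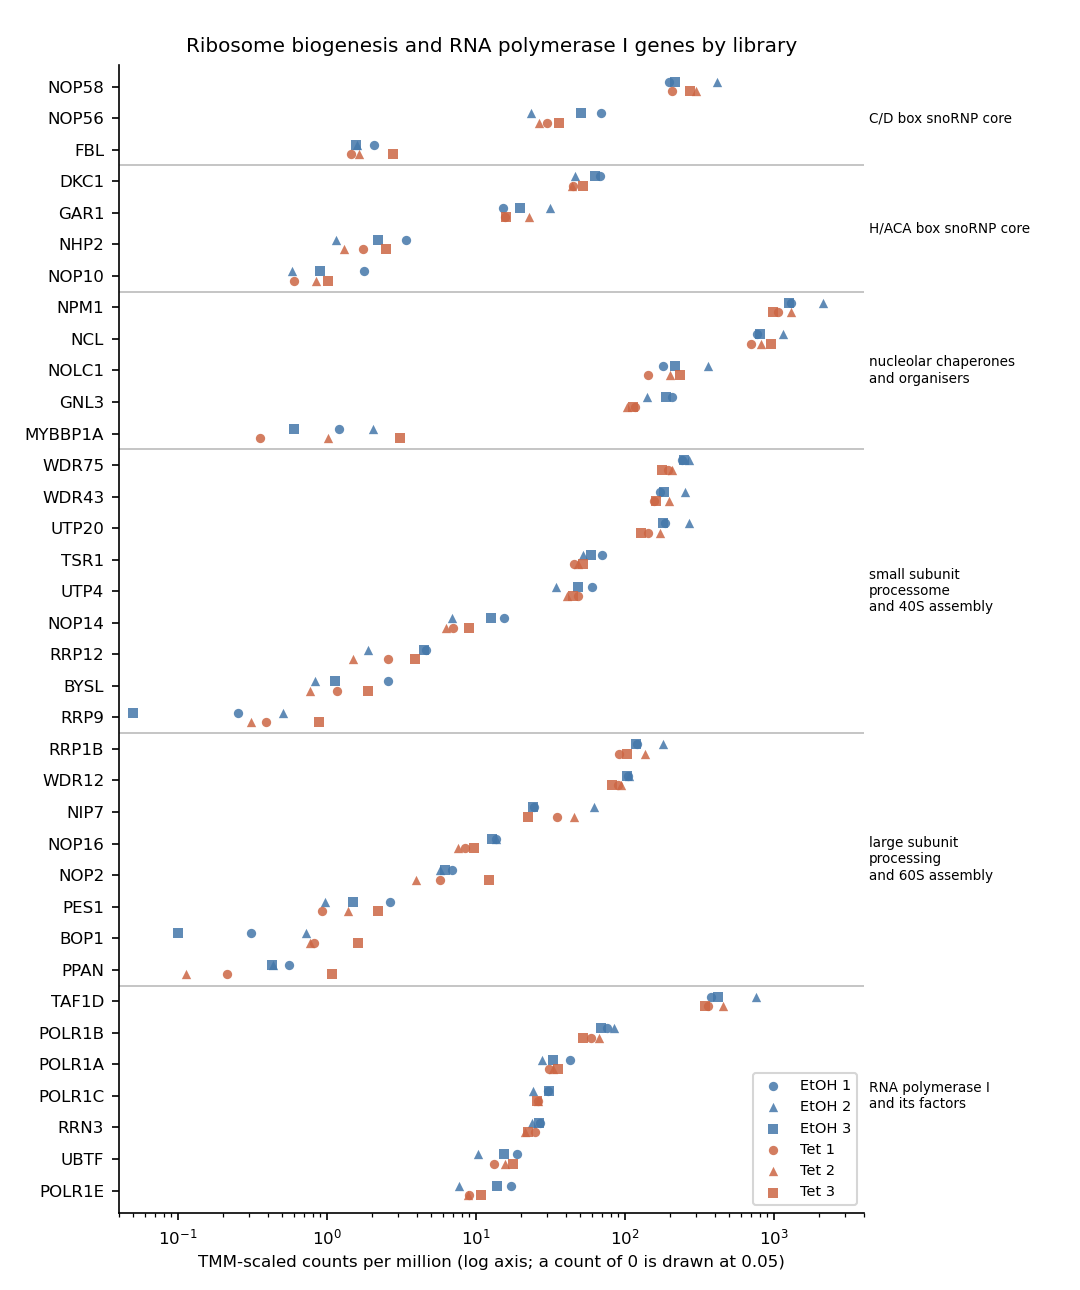
TMM-scaled CPM (log axis) of each of the 36 genes in the 3 EtOH libraries (blue) and the 3 Tet libraries (orange), grouped by role, with the marker shape giving the replicate number. Within a role the genes span orders of magnitude, and the Tet points lie left of all EtOH points in 7 genes and right of them in *BOP1*.

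In 7 of 36 genes every Tet library lay below every EtOH library, against 8.28% of all genes, and in 1 every Tet library lay above, against 9.2%. Without the library EtOH 2 the median of the 36 genes was -0.22, 27 of them were below 0, and 2 passed the threshold, *GNL3* (log2 fold change -0.83, edgeR adjusted p = 0.0155) and *NOP56* (-0.95, 0.0291), where 1.38% of all genes were called as lower. Leaving out any other library gave 0 calls among the 36 genes, but also at most 2 calls among all genes tested. The number below 0 ran from 23 without EtOH 1 to 33 without Tet 3. Over the 6 fits with 1 library left out, 19 genes were below 0 in every fit, 2 were above 0 in every fit, and 15 changed sign in some fit. Over libraries, the median deviation of the 36 genes from their own means on the log2(CPM + 0.5) scale was 0.16, 0.0045 and 0.022 in the EtOH libraries and -0.24, -0.089 and -0.0053 in the Tet libraries. All Tet medians thus lay below all EtOH medians, with Tet 3 close to EtOH 2. The 36 genes together took 0.463%, 0.623% and 0.457% of the counts in the EtOH libraries and 0.371%, 0.419% and 0.391% in the Tet libraries, to which *NPM1* and *NCL* contributed most.

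**Figure D2:**
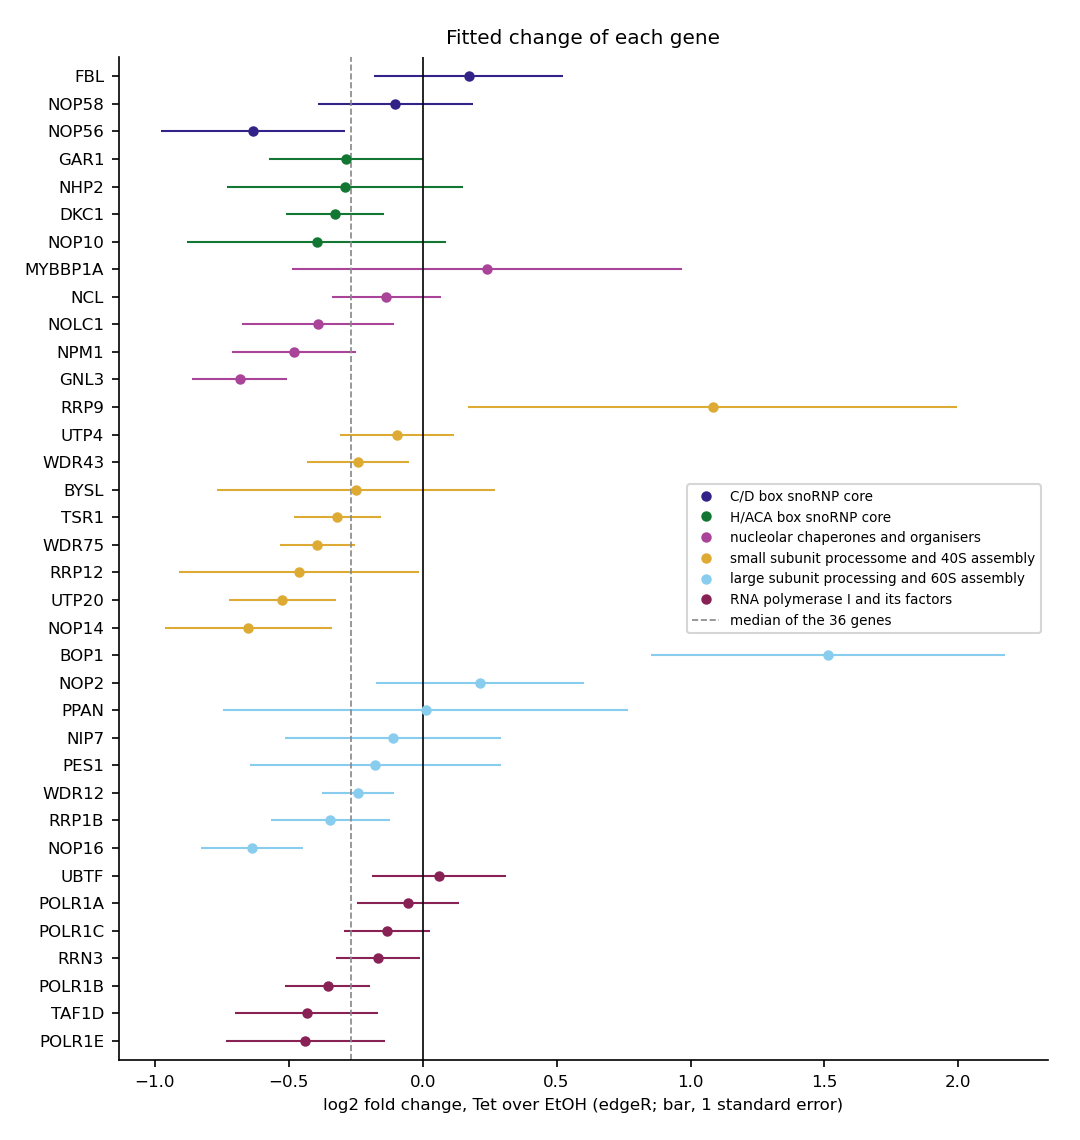
Fitted log2 fold change of Tet over EtOH with 1 standard error for each gene, coloured by role, with a dashed line at the median of -0.27. The points of 29 genes are left of 0, and *BOP1* and *RRP9*, both under 5 CPM, are farthest to the right with wide bars.

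The C/D box snoRNP core carries out 2′-O-methylation of ribosomal RNA. Of its proteins, the set holds the methyltransferase fibrillarin (*FBL*) and the paralogous scaffold proteins *NOP56* and *NOP58*. *NOP56* measured 68.4, 23.4 and 50.6 CPM in the EtOH libraries and 29.6, 26.4 and 35.8 CPM in the Tet libraries. The groups overlapped through EtOH 2, the lowest of all 6 libraries, and the difference missed the threshold (edgeR adjusted p = 0.572, log2 fold change -0.63 ± 0.34 SE). The fold change was -0.29 without EtOH 1 and -0.95 without EtOH 2. *NOP58* measured 198, 415 and 216 CPM in EtOH and 206, 297 and 270 CPM in Tet. Here the same library EtOH 2 was the highest, and the fold change was -0.10 ± 0.29 on the log2 scale and 0.32 without EtOH 2. *FBL* gave 2.06, 1.59 and 1.55 CPM in EtOH and 1.45, 1.64 and 2.77 CPM in Tet, a log2 fold change of 0.17 ± 0.35 from 41 to 110 counts per library, with the highest value in Tet 3 and the other 5 libraries close together.

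Although the listed proteins of the C/D core work in 1 particle, their transcripts were measured at very different levels. Per length, in TPM (counts divided by exon length and scaled to a common sum), *NOP58* had a mean of 224 over the 6 libraries, *NOP56* of 21.3 and *FBL* of 2.32, so that *NOP58* was 96.4-fold above *FBL* and 10.5-fold above *NOP56*. Their exon bases differ in composition, with 39.2% G or C in *NOP58*, 52.8% in *NOP56* and 53.2% in *FBL*. *NOP56* and *FBL* were thus unequal in level at nearly equal GC content. To show the difference in composition, a coding stretch of 90 bases is printed for each gene from GENCODE 44 (GRCh38), chosen as the stretch within 1 coding exon whose GC content is nearest to that of all exon bases of the gene, with G and C in capitals. They lie at chr2:202284345-202284434 (plus strand), exon 5 of 15, chr20:2653283-2653372 (plus strand), exon 3 of 12, and chr19:39839111-39839200 (minus strand), exon 5 of 9, and hold 38.9%, 53.3% and 53.3% G or C.
NOP58: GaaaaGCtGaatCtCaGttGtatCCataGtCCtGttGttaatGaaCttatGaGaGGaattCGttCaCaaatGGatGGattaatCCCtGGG
NOP56: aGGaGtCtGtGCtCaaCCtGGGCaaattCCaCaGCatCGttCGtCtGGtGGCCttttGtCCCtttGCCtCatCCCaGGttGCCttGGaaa
FBL: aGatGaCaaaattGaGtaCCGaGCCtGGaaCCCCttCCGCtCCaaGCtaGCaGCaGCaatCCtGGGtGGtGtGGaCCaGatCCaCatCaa

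The H/ACA box core guides pseudouridylation and is shared with telomerase. All 4 genes had log2 fold changes below 0, from -0.29 to -0.40, and none passed the threshold (smallest edgeR adjusted p = 0.584). Dyskerin (*DKC1*), the pseudouridine synthase, measured 67.2, 45.7 and 62.5 CPM in EtOH and 44.6, 43.7 and 51.7 CPM in Tet, the groups overlapping only through EtOH 2. *GAR1* ranged from 15.1 to 31.2 CPM in EtOH and from 15.5 to 22.7 CPM in Tet. *NHP2* and *NOP10* were low, with means of 2.24 ± 1.11 and 1.08 ± 0.611 CPM (SD, n = 3) in EtOH and 1.83 ± 0.590 and 0.818 ± 0.203 CPM in Tet. On the TPM scale *DKC1* was 6.75-fold above *NOP10* and 8.90-fold above *NHP2*, although these proteins are also partners in 1 complex.

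Nucleolar chaperones and organisers held the most abundant transcripts and the lowest fold change of the set. *GNL3* (nucleostemin), a nucleolar GTPase of proliferating cells, lies at chr3:52681156-52694497 and measured 206, 139 and 188 CPM in EtOH and 116, 103 and 113 CPM in Tet. The groups did not overlap, and the mean went from 178 ± 34.5 to 111 ± 6.65 CPM (SD, n = 3), a log2 fold change of -0.68 ± 0.18 SE with an edgeR adjusted p of 0.193. It had the smallest adjusted p of the 36 genes. *NPM1* (nucleophosmin), a histone chaperone and the major protein of the granular component, measured 1287, 2111 and 1254 CPM in EtOH and 1061, 1290 and 988 CPM in Tet. Tet 2 lay between the EtOH libraries, and the log2 fold change was -0.48 ± 0.23 (adjusted p = 0.519) and -0.18 without EtOH 2. *NCL* (nucleolin) measured 761, 1144 and 801 CPM in EtOH and 697, 816 and 950 CPM in Tet, with a log2 fold change of -0.14 ± 0.20 and overlapping groups.

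In *NPM1*, *NCL* and *NOP58*, the 3 genes of the set with the highest mean TPM, EtOH 2 was the highest library. *NOLC1*, a chaperone of snoRNPs, ranged from 180 to 361 CPM in EtOH, again with EtOH 2 highest, and from 142 to 233 CPM in Tet. *MYBBP1A*, a nucleolar MYB-binding protein, measured 1.20, 2.02 and 0.595 CPM in EtOH and 0.354, 1.02 and 3.07 CPM in Tet. Its fold change of 0.24 ± 0.73 on the log2 scale rests on Tet 3 and was -0.86 without that library.

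Of the 9 genes of the small subunit processome and of 40S assembly, 8 had log2 fold changes below 0 (median -0.32), where 50.7% of all genes did, and in 3 every Tet library lay below every EtOH library, where 8.28% of all genes did. *WDR75*, a subunit of the UTP-A complex that binds the 5′ end of the precursor, lies at chr2:189441446-189475552. It measured 240, 267 and 248 CPM in EtOH and 194, 205 and 176 CPM in Tet. This was a narrow spread within either group, with a log2 fold change of -0.39 ± 0.14 SE and an edgeR adjusted p of 0.354. *UTP20*, a large scaffold of the processome at chr12:101280105-101386618, measured 186, 267 and 180 CPM in EtOH and 141, 171 and 127 CPM in Tet (log2 fold change -0.52 ± 0.20, adjusted p = 0.392). Tet 2, its highest Tet library, lay just below EtOH 3, and the fold change was -0.31 without EtOH 2. *TSR1*, needed for late 40S maturation, measured 69.6, 52.1 and 59.4 CPM in EtOH and 45.2, 48.0 and 52.1 CPM in Tet. The groups touched, since EtOH 2 exceeded Tet 3 only in the decimals, and the log2 fold change was -0.32 ± 0.16.

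*NOP14*, a 40S assembly factor, gave 15.4, 6.89 and 12.6 CPM in EtOH and 7.02, 6.23 and 8.96 CPM in Tet, the largest negative fold change of this role (-0.65 ± 0.31 on the log2 scale) but with EtOH 2 inside the Tet range, and -0.41 without EtOH 1. *WDR43* ranged from 172 to 253 CPM in EtOH and from 157 to 196 CPM in Tet, and *UTP4* from 34.3 to 59.9 and from 40.6 to 48.1 CPM. Both belong to the UTP-A complex with *WDR75*. The GC-rich genes *RRP12*, *BYSL* and *RRP9* stayed under 5 CPM in every library. *RRP9*, a protein specific to the U3 snoRNP, had 9, 14 and 0 counts in EtOH and 11, 11 and 35 counts in Tet, and its log2 fold change of 1.08 ± 0.91 rests on these few reads and was 0.47 without EtOH 3, 0.48 without Tet 3 and 1.99 without EtOH 2.

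Of 8 genes of large subunit processing, 5 were below 0. *NOP16*, at chr5:176383938-176388927, measured 13.6, 13.6 and 12.8 CPM in EtOH and 8.44, 7.56 and 9.71 CPM in Tet. The EtOH libraries were nearly equal, and the groups were apart (log2 fold change -0.64 ± 0.19 SE). The edgeR adjusted p was 0.260. *WDR12*, *BOP1* and *PES1* form the PeBoW complex, which is needed to process the 5.8S and 28S precursors. *WDR12* (chr2:202874261-203014798) measured 105, 106 and 103 CPM in EtOH and 90.002, 93.4 and 82.0 CPM in Tet. Its groups did not overlap, and the log2 fold change was -0.24 ± 0.13 (adjusted p = 0.579).

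*BOP1* (chr8:144262045-144291438) went the other way, with 0.307, 0.721 and 0.0992 CPM in EtOH and 0.815, 0.762 and 1.61 CPM in Tet. Every Tet library lay above every EtOH library (log2 fold change 1.51 ± 0.66 SE, edgeR adjusted p = 0.463), but EtOH held only 3 to 20 counts and Tet 23 to 64 counts, and the fold change was 2.35 without EtOH 2. *PES1* ranged from 0.974 to 2.62 CPM in EtOH and from 0.922 to 2.19 CPM in Tet. Per length *WDR12* was 58.4-fold above *BOP1* and 30.8-fold above *PES1*.

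*NOP2*, the methyltransferase of 28S rRNA, measured 6.92, 5.70 and 6.22 CPM in EtOH and 5.74, 3.95 and 12.1 CPM in Tet. Its fold change of 0.21 ± 0.39 on the log2 scale was -0.37 without Tet 3. *RRP1B* ranged from 119 to 180 CPM in EtOH and from 91.2 to 136 CPM in Tet, and *NIP7* from 24.1 to 62.1 and from 22.2 to 45.1 CPM. *PPAN* stayed at or under 1.08 CPM in every library.

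RNA polymerase I and its factors had a median log2 fold change of -0.17, with 6 of 7 genes below 0. *POLR1B*, the second largest subunit, at chr2:112541915-112579818, measured 75.6, 83.7 and 68.8 CPM in EtOH and 59.3, 66.8 and 52.2 CPM in Tet. The groups did not overlap, at -0.35 ± 0.16 SE on the log2 scale (edgeR adjusted p = 0.476). The largest subunit *POLR1A*, in contrast, ranged from 27.6 to 42.3 CPM in EtOH and from 30.9 to 35.3 CPM in Tet (-0.05 ± 0.19). *POLR1C*, shared with RNA polymerase III, had means of 28.3 ± 3.58 and 25.8 ± 0.243 CPM (SD, n = 3). *RRN3*, the initiation factor that recruits the polymerase, had means of 25.6 ± 1.51 and 22.8 ± 1.87 CPM, and *UBTF*, which binds the ribosomal DNA promoter, of 14.9 ± 4.31 and 15.5 ± 2.29 CPM. *POLR1E* ranged from 7.61 to 17.2 CPM in EtOH and from 8.77 to 10.7 CPM in Tet. *TAF1D*, a subunit of the SL1 promoter complex, ranged from 378 to 759 CPM in EtOH and from 343 to 450 CPM in Tet, with EtOH 2 again far above the other libraries.

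Across the 36 genes, those rich in G and C tended to have lower measured levels, with exceptions within the roles such as *RRP1B* (50.5% GC, 59.6 TPM) above *WDR12* (40.03% GC, 29.1 TPM) and *NCL* (47.0% GC, 264 TPM) above *GNL3* (43.5% GC, 121 TPM). The mean level ran from 442 TPM (*NPM1*) to 0.435 TPM (*PPAN*), a ratio of 1016. The 3 genes with under 40% GC (*NOP58*, *WDR75* and *TAF1D*) lay between 121 and 224 TPM, the 9 genes from 50% to under 55% between 2.32 and 59.6 TPM, and the 4 genes of 60% or more (*MYBBP1A*, *RRP9*, *BOP1* and *PPAN*) between 0.435 and 0.677 TPM. The median of all protein-coding genes with a count was lower at each step as well, from 27.7 TPM under 40% GC to 1.99 TPM at 50% to under 55% and 0.247 TPM at 60% or more. As a description, Spearman's rho of GC content and mean TPM was -0.85 over the 36 genes and -0.54 over 16809 protein-coding genes, points that share the same 6 libraries. Levels within a complex were therefore not read as the make-up of that complex. The part that base composition had in these levels was not tested.

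**Figure D3:**
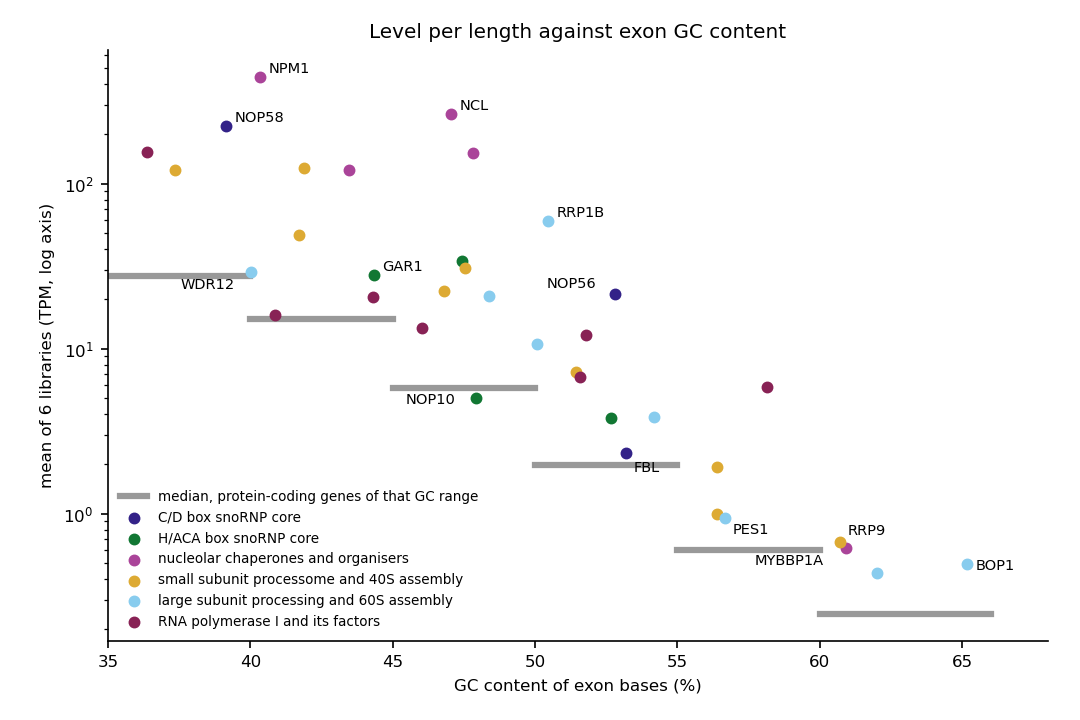
Mean level over the 6 libraries in TPM (log axis) against the GC content of exon bases for each of the 36 genes, coloured by role, with grey bars for the median of all protein-coding genes in the same GC range. The genes descend from *NPM1* at 442 TPM to *PPAN* at 0.435 TPM, and the grey bars descend with them.

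The libraries also differed from each other along GC content. Among the 26 genes with a mean of at least 5 CPM, 9 of 11 with under 45% GC were above their own mean in EtOH 2 (median deviation 0.46 on the log2 scale), and 6 of 8 with 50% GC or more were below it (-0.32). Over all genes tested in the same GC ranges, here with no minimum CPM, the medians in EtOH 2 were 0.11 and -0.26. The direction of the tilt was thus not particular to this set, while its size was not compared on like genes. Genes of 50% GC or more under 5 CPM were mixed in EtOH 2. *FBL*, *NHP2*, *RRP12*, *BYSL* and *PES1* were below their own mean. The 4 genes of 60% GC or more were above it, *MYBBP1A* by 0.59, *RRP9* by 0.24, *BOP1* by 0.11 and *PPAN* by 0.0092. Among the 26 genes, Tet 2 had medians of -0.0033 and -0.36, and Tet 3 of -0.30 and -0.0035. Of the 36 genes, EtOH 1 held the highest value in 15, EtOH 2 in 14, EtOH 3 in 1 and Tet 3 in 6, while Tet 1 and Tet 2 held none. With a smooth curve of each library against GC content removed, an alternative chosen after seeing the data, 32 of 36 genes were below 0, the median was -0.28, and 0 passed the threshold. The part of this tilt in the spread within the groups, or in the differences between Tet and EtOH, was not tested further.

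**Figure D4:**
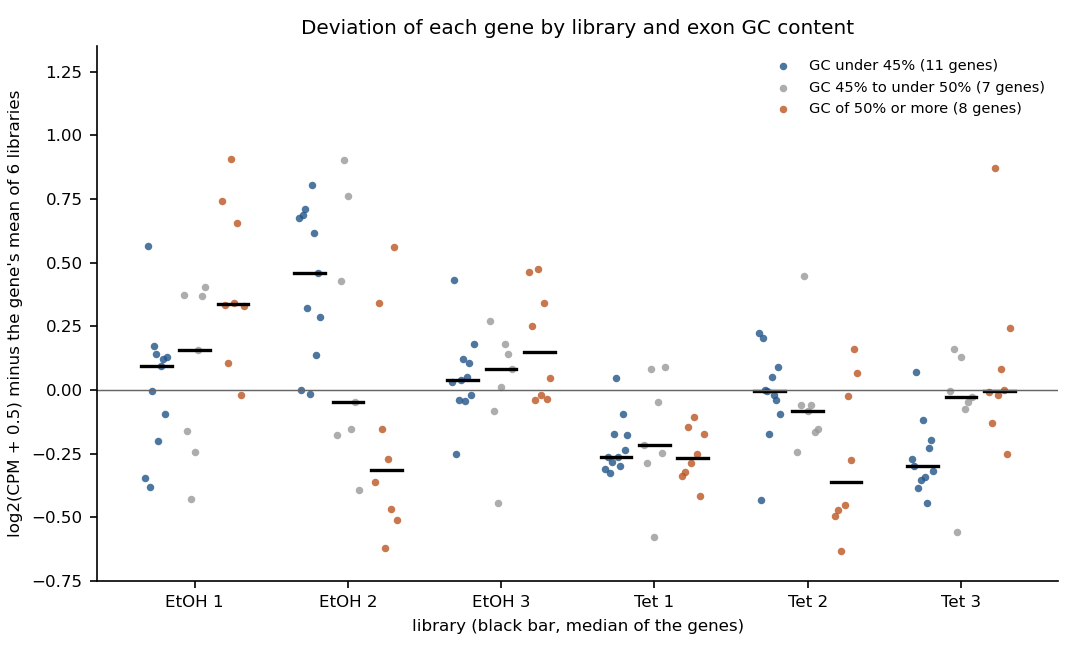
Deviation of log2(CPM + 0.5) from the gene's mean over the 6 libraries, for the 26 genes with a mean of at least 5 CPM, by library and GC content, with black bars for medians. In EtOH 2 the median of the genes under 45% GC lies at 0.46 and that of the genes of 50% GC or more at -0.32. In every Tet library all medians are below 0, some of them only just.

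The wider pathway was read from a longer list. Of 123 other ribosome biogenesis genes, 118 were tested in edgeR and limma-voom, and all 123 were fitted in DESeq2. In each method 0 passed the threshold. Of all genes, edgeR called 53 of 22443, limma-voom 58 of 22443 and DESeq2 485 of the 40467 fitted. An unadjusted p under 0.05 was reached by 11 of the 118, all lower in Tet, against 4.94% of all genes lower and 5.83% higher. A log2 fold change below 0 was seen in 96 of the 118 (median -0.22), against 50.7% of all genes. Small subunit factors were below 0 in 38 of 42, large subunit factors in 32 of 40, and RNA exosome subunits and nuclear exonucleases in 9 of 11. Further RNA polymerase I genes were below 0 in 10 of 14, and snoRNP assembly and other nucleolar factors in 7 of 11. The lowest values among genes of at least 5 CPM were those of *PAK1IP1* (log2 fold change -0.67), *MAK16* (-0.63), *IMP3* (-0.60) and *IMP4* (-0.59). *MAK16*, a 60S assembly factor, measured 101, 137 and 107 CPM in EtOH and 74.4, 79.96 and 68.2 CPM in Tet, with groups apart and an edgeR adjusted p of 0.197. *PELP1* (0.32), *NVL* (0.21), *SENP3* (0.20) and *MPHOSPH10* (0.19) were highest, and the value of *PELP1* rests on Tet 3, with 88.3 CPM against 27.3 to 44.8 CPM in the other libraries.

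Cell cycle markers lay on the same side of 0 as the ribosome biogenesis genes. Of 16 such genes 15 had a log2 fold change below 0 (median -0.31), against 50.7% of all genes. An unadjusted p under 0.05 was reached by 3, all lower in Tet, against 4.94% of all genes lower, and 0 passed the threshold. The summed level of these markers was 1925 to 2938 CPM in EtOH and 1707 to 2233 CPM in Tet, so the groups overlapped. The part of proliferation in the values of the 36 genes was not tested.

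Some of the 36 genes share reads with a neighbour or copy. Exons of other genes covered 54.4% of the exon bases of *NOP2*, 49.2% of *PPAN*, 28.9% of *NHP2*, 23.9% of *TSR1*, 20.7% of *NOP14*, 18.5% of *NOP16*, 18.4% of *NIP7*, 18.3% of *POLR1C*, 16.6% of *TAF1D* and 10.3% of *NOP58*, and since the counting divided a shared read pair without using its strand, the values of these genes are uncertain. *NPM1* has 49 annotated pseudogenes and *RRN3* has 4, whose reads can be lost where only unique alignments are counted.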

How the data were processed

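Total RNA libraries of 3 EtOH and 3 Tet cultures were analysed, 1 table per library. The deposited values are estimated counts per gene, which the authors made, per the file headers, with featureCounts 1.6.4 on unique STAR alignments, dividing a read pair that overlapped several genes evenly among them and without the strand. The submitters' processing notes name STAR 2.7.1a, featureCounts 1.5.1 and GRCh38, and the study's methods name further options for counting, so the headers were followed. Fractional values made up 12.3% to 14.7% of the genes per library. All 92 spike-in rows were at 0 and no column was left unmapped. Nothing in the labels says whether the cultures were separate experiments. The study gives 3 independent biological replicates as its general rule for in vitro work, without naming these libraries there. The p-values therefore measure the spread between these libraries, which may be technical, and the floor of 3 counts covers counting error only.

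Counts were rounded, filtered with filterByExpr and scaled by TMM, and Tet was tested against EtOH across all 22443 genes with edgeR 4.0.16 by its quasi-likelihood F test (R 4.3.3) and Benjamini-Hochberg adjustment at 0.05. The study's own tool, DESeq2 (here 1.42.0), and limma-voom (limma 3.58.1) were alternatives, as were other scalings and filters, unrounded counts, the removal of mitochondrial genes, a replicate block and each library left out. The fit was tested on simulated data. Standard errors are the log2 fold change divided by the root of F. CPM are TMM-scaled, and TPM use the exon length in the files. GC content is that of all exon bases in the reference genome of the same build (of 60651 identifiers, 53026 were in GENCODE 44 in the same version, 53025 of them at the same coordinates). Symbols were matched for 60437 identifiers. The 36 genes and all gene lists were chosen with earlier results of these data known.

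Values per library are given for *MYCN*, for genes past the threshold, for the 3 genes with the highest mean TPM, the 5 largest and the 5 most negative fold changes, all genes whose groups did not overlap, and *NOP56* and *NOP58*. Others of the pathway were named if past the threshold or among the 4 largest and the 4 most negative with a mean of at least 5 CPM. *DKC1* and the other genes with values were added after their values were seen. Motif matches and coding stretches were read from RefSeq and GENCODE 44 sequences.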

Additional observations from a re-analysis of the deposited data

How the results depend on the processing

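The median log2 fold change of the 36 genes stayed below 0 in all alternatives, from -0.36 to -0.22 with 1 library left out and from -0.28 to -0.24 in the others. The count of genes called among all tested was less stable than this median, with 53 in the analysis reported, 302 with no filter on low counts, 485 with DESeq2 and 0 to 692 with 1 library left out, with 692 without EtOH replicate 2 and at most 2 without any of the other 5 libraries. With a GC correction, chosen after seeing the data, it was 121, and with GC correction and replicate block 1042. Leaving out 1 library gave 0 to 2 calls among the 36 genes and 0 to 4 among the other ribosome biogenesis genes. The fold change of *MYBBP1A* reversed to -0.012 with limma-voom and -0.33 with the GC correction, and ranged from -0.86 to 0.74 with 1 library left out. The ranges of *FBL* (-0.16 to 0.33), *NCL* (-0.27 to 0.077), *NOP2* (-0.37 to 0.51) and *NOP58* (-0.32 to 0.32) also crossed 0. With *MYBBP1A* these are 5 of the 15 genes of the set that changed sign with some library left out. In 6 of the 36 genes every library held under 100 counts. The cause of the reversals was not tested.

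Libraries share replicate numbers across the groups, but the deviations of same-numbered libraries correlated at 0.06, 0.51 and 0.22, and EtOH 1 correlated best with Tet 3 (0.38), so the numbers were not taken as a pairing. With the replicate number as a block, 675 of the 22443 genes tested were called, 254 of them lower in Tet. These 254 included 2 of the 36 (*GNL3* with an edgeR adjusted p of 0.023 and *UTP20* with 0.04999) and 3 of the 118 other ribosome biogenesis genes. With GC correction and block, 1042 of the 22443 genes were called, 430 of them lower in Tet. These 430 included 4 of the 36 (*WDR75*, *UTP20*, *GNL3* and *NPM1*) and 5 of the 118 others. The fold change of *MYBBP1A* was -0.12 with the block and -0.35 with both.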

Other observations

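Of the 36 genes, 10 enclose annotated snoRNA genes, 36 snoRNA genes in all. *TAF1D* holds 8, *GNL3* 6, *NOP56* 5, *NOP58* 4, *NCL* and *WDR43* 3 each, *DKC1*, *TSR1* and *PPAN* 2 each and *POLR1C* 1. The host genes had a median level of 88.7 TPM in EtOH and 60.1 TPM in Tet, and the 26 genes without a snoRNA gene inside had 11.1 and 7.26 TPM. Host genes had a median log2 fold change of -0.28, with 9 of 10 below 0, and the others of -0.27, with 20 of 26 below 0. The median GC content of exon bases was 46.5% in the hosts and 51.0% in the others.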
